A study of Rattus norvegicus with 9 samples.

Results

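The genes described here code for the proteins of the cytosolic ribosome, and were chosen by symbol alone, as every row of the count table named Rpl or Rps with a number and at most a trailing a, l or x, plus Rplp0, Rplp1, Rplp2 and Rpsa. The rule found 78 genes among the 34322 rows, 31 of the small (40S) subunit and 47 of the large (60S) subunit. Of these, 75 passed the filter on low counts and were tested, and Rpl3l, Rpl10l and Rpl39l did not. Rps9, Rps19, Rpl35a and Rpl37a have no row under those symbols, and genes such as Fau and Rack1, which also code for ribosomal proteins, fall outside the rule; both sets are given beside the members below. The table holds RNA sequencing counts from 9 libraries of CC-531, a colon carcinoma cell line of the WAG/Rij rat, in 3 states with 3 libraries each. Ex vivo tumors 1, 2 and 3 grew in female WAG/Rij rats that were 8 to 10 weeks old when CC-531 cells were injected into the peritoneal cavity. Organoids were CC-531 cells grown in matrigel, at passages p7, p8 and p9, and cells were cultures in RPMI1640 with serum at passages p5, p8 and p11. All 9 libraries come from this 1 line, none carries a label of drug or heat treatment, and although the methods describe different passages for every state, no label ties a tumor to an animal or a passage, so a p-value here reflects library-to-library spread, part of which may be technical.

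A ribosome carries most of these proteins in equal number, their genes are transcribed at high rates, and protein that finds no place in a ribosome is degraded. Their mRNAs begin with a run of C and T, the 5′ terminal oligopyrimidine (TOP) motif, through which Larp1 and the growth-regulated kinase complex mTORC1 hold back or release their translation and protect the mRNAs in starved cells. In a growing colon carcinoma this family is among the most abundant groups of mRNA, and it is often read as a sign of growth.

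The motif can be read in the annotated start sites. In RefSeq's table for the rat build GRCr8, which gives 250 bases before and 50 bases after each start, 59 members had 1 window, Rps27a had more than 1 and was left out, and 18 had none. The first base was a C followed by at least 4 more C or T in 22 of 59 members (37.3%), against 881 of all 33469 windows (2.63%). Such a run began within 10 bases of the annotated start, on either side, in 43 of 59 members (72.9%), against 27.8% of all windows. Windows of 30 bases, 15 on each side of the start, are printed for the members that the results below turn on, together with Rpl31, whose run of 12 bases was the longest along with that of Rpl10; capitals mark the run that starts at the annotated first base.
Rpl31 (chr9:49143096-49143125, plus strand): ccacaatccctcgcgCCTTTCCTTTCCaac
Rpl19 (chr10:83519049-83519078, plus strand): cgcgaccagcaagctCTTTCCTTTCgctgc
Rplp1 (chr8:71290858-71290887, minus strand): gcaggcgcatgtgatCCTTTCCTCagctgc
Rps18 (chr20:4933730-4933759, plus strand): cacgtcacttccgctCTCTCTTCCacagga
Rps15 (chr7:10068101-10068130, minus strand): cgctgacaccgcttcCTTTTCCCagcagcc
Rps26 (chr7:1643390-1643419, minus strand): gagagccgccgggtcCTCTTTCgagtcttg
Rps27 (chr2:177964592-177964621, minus strand): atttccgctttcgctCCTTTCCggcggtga
Other members that the results turn on had no such run at the annotated first base. They are Rpl38, Rps2, Rpsa, the paralog Rps27l, and the untested paralog Rpl3l.
Rpl38 (chr10:100200420-100200449, plus strand): cttcgttctttttccgttgttcggtgctcg
Rps2 (chr10:14251833-14251862, plus strand): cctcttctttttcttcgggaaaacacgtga
Rpsa (chr8:128728864-128728893, plus strand): cctttccgcgctaccctggaacgggtccgt
Rps27l (chr8:76443643-76443672, plus strand): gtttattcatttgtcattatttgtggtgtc
Rpl3l (chr10:14258431-14258460, plus strand): gacctctggtgcctggtggggaggtccctt
In Rpl38 and Rps2 a run of C and T lies just before the annotated start, and none begins within 10 bases of it in Rpsa, Rps27l and Rpl3l. In Rpsa and Rpl3l a run begins further upstream in the printed window. Of 5 short motifs searched on both strands of the 300-base windows, CCGGAAG, the core bound by ETS factors such as GABPA, was found in 20 of 59 members (33.9%) against 8.75% of all windows. ATGGCGG, bound by YY1, was found in 13 members (22%) against 4.8%, and GGGCGG, the GC box bound by SP1, in 34 members (57.6%) against 33.1%. CACGTG, the E box bound by MYC, was in 5 members (8.47%) against 6.42%, and TATAAA in 7 members (11.9%) against 14.2%. The reverse strand of CCGGAAG begins with CTTCC, so it overlaps the run in members such as Rpl34 and Rpl39, and these matches are letters in a window, not measured binding.

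The libraries held 12601774 to 18438055 counts in ex vivo tumors, 15968793 to 20444595 in organoids and 16983060 to 24335921 in cells. All 13 epithelial markers checked passed the filter on low counts. The ex vivo tumors also held RNA of host cells: the summed level of 10 fibroblast markers was 4527 to 9317 CPM (counts scaled to an equal library size) in ex vivo tumors, 6.47 to 15.5 CPM in organoids and 4.09 to 6.0 CPM in cells, and that of 10 macrophage markers was 1125 to 1604 CPM in ex vivo tumors, 23.5 to 70.3 CPM in organoids and 37.0 to 56.8 CPM in cells. Fibroblast markers included 4 at 0 in all organoids and 3 at 0 in all cells. A ribosomal protein level in a tumor is therefore a level over carcinoma and host cells, and in bulk RNA fewer cells of a type and less RNA per cell cannot be told apart. Ex vivo 1 and organoids p7 stood apart from the other libraries of their state in this family, as described next, and the fold changes and calls of the family and its subgroups are given with and without them. The name of the table calls its values normalized, but they are whole numbers, and library sizes after TMM scaling still ran from 12954850 to 23249068, so no scaling of this kind had made them equal and they were treated as raw counts; another normalization was not tested for.

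The family took a large share of every library, and its share differed as much within a state as between states. Members held 11.2%, 6.74% and 6.26% of all counts in ex vivo tumors 1, 2 and 3, with a mean of 8.08% ± 2.74 (SD, n = 3). Organoids p7, p8 and p9 had 9.10%, 4.97% and 5.20%, with a mean of 6.42% ± 2.32 (SD, n = 3). Cells p5, p8 and p11 had 5.12%, 4.86% and 6.15%, with a mean of 5.38% ± 0.679 (SD, n = 3). Ex vivo 1 and organoids p7 were the highest libraries of the series, and the other 7 lay between 4.86% and 6.74%. Every tumor was above every cell library, organoids and cells overlapped, and of the organoids only p7 was above any tumor. Counts in 60S members exceeded those in 40S members by a ratio of 1.53 ± 0.069 in ex vivo tumors, 1.5 ± 0.033 in organoids and 1.5 ± 0.033 in cells (SD, n = 3 each), so both subunits moved together.

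**Figure D1:**
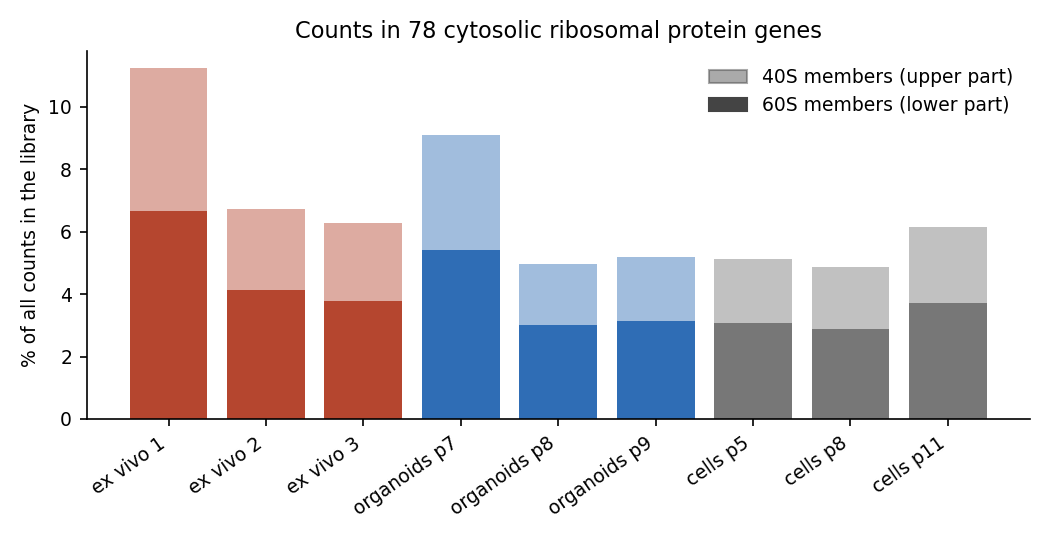
Share of all counts in each library (y axis, percent) taken by the 78 cytosolic ribosomal protein genes, with 60S members as the lower and 40S members as the upper part of each bar. Ex vivo 1 (11.2%) and organoids p7 (9.10%) stand above the other 7 libraries, which lie between 4.86% and 6.74%.

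Nearly all members followed this common level. In ex vivo 1 all 75 tested members were higher than in ex vivo 2 and ex vivo 3, by a median of 0.91 on the log2 scale (1.88-fold), from 0.50 for Rpl35 to 1.67 for Rps14; of all 13331 genes tested, 37.8% were highest in that library of the 3. In organoids p7 all 75 were again higher than in p8 and p9, by a median of 0.74 (1.67-fold), from 0.31 for Rps17l to 0.99 for Rps26, against 46.2% of all genes highest in that library. In cells no library was highest in all members. The members highest in p11, p5 and p8 numbered 51, 23 and 1 (Rps27l), against 40.4%, 35.2% and 24.4% of all genes. Cells p8 was lowest in 52 members, against 31.5% of all genes. The median spread of a member's log2 CPM within a state was 0.55 in ex vivo tumors, 0.43 in organoids and 0.19 in cells (SD), while that of all genes tested was 0.31 in ex vivo tumors, 0.30 in organoids and 0.27 in cells. Once the median deviation of the family was subtracted from each library, the members' pooled median SD was 0.12, against 0.43 before. Part of this drop is set by construction, since the median subtracted was that of the same members. For all genes tested the same subtraction gave 0.54, against 0.35 before.

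**Figure D2:**
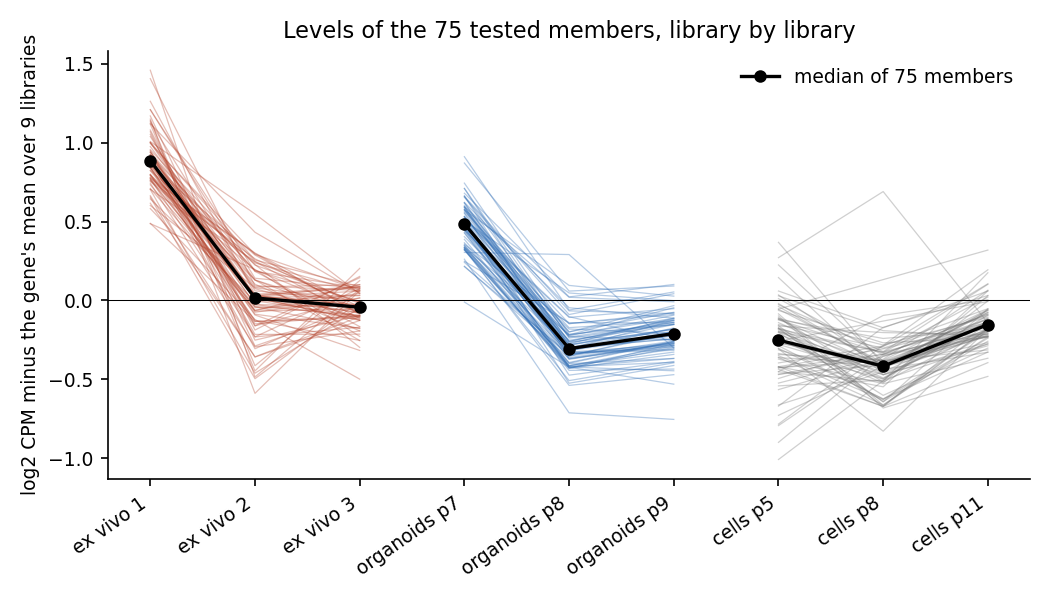
Log2 CPM of each of the 75 tested members minus its mean over the 9 libraries (y axis), as a thin line per gene within each state, with the median of the members in black. All members lie higher in ex vivo 1 and in organoids p7 than in the other 2 libraries of the same state.

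Other signals also set these libraries apart. The summed level of 7 B and plasma cell markers was 574 CPM in ex vivo 1, against 26.3 and 77.6 CPM in ex vivo 2 and 3. That of 10 T and NK cell markers was 357, 150 and 219 CPM in ex vivo 1, 2 and 3, and that of 7 erythrocyte genes 1261, 221 and 336 CPM. All organoid libraries were under 1 CPM for the T and NK cell markers, and the summed macrophage markers were 70.3 CPM in p7, against 23.5 and 23.9 CPM in p8 and p9. Mitochondrial rRNA took 0.0888% of counts in organoids p7, against 0.352% and 0.288% in p8 and p9, so it was lowest in the organoid library with the highest ribosomal protein level. It took 0.116%, 0.0990% and 0.0514% in ex vivo 1, 2 and 3. The part of these signals in the ribosomal protein level was not tested.

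Ex vivo tumors were compared with cells, which asks how the family differs between the line grown as a tumor and the line in culture. Members were on the whole higher in ex vivo tumors, but 1 of 75 passed the test. Rpl38, a 60S protein whose mutation in mouse disturbs translation of Hox mRNAs, had 872, 429 and 399 CPM in ex vivo tumors 1, 2 and 3, against 291, 262 and 293 CPM in cells p5, p8 and p11. All 3 tumors were above all 3 cell libraries, and Rpl38 rose by 1.01 on the log2 scale (SE 0.31; adjusted p = 0.0435, edgeR's quasi-likelihood test with Benjamini-Hochberg adjustment over all genes). It lost the call when ex vivo 1 was left out (log2 fold change 0.55, adjusted p = 0.160), and also when cells p5, p8 or p11 was left out (0.95 to 1.03, adjusted p = 0.0875 to 0.141). The 1 rise among 75 members is set against 12.4% of all genes tested that rose, and the 0 falls against 6.78%. At an unadjusted p under 0.05 there were 19 rises and 0 falls, against 18.5% and 14.3% of all genes. The libraries did not overlap in 35 members, all higher in ex vivo tumors, against 22.2% of all genes higher and 18.8% lower.

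The largest log2 fold change was below the threshold. Rps27, a zinc finger protein of the 40S subunit, had 1704, 686 and 672 CPM in ex vivo tumors, against 442, 453 and 531 CPM in cells, a log2 fold change of 1.10 (SE 0.37; edgeR adjusted p = 0.0593). Every tumor was above every cell library, with ex vivo 1 far above the others. At the low end stood Rps27l, the paralog of Rps27 that is a p53 target in human and mouse, at -0.19, Rps2 at 0.01 and the weakly counted Rps17l at 0.10, and none of these differed beyond its error. Over all 75 members the log2 fold change was positive in 74, with a median of 0.61 against 0.0040 for all genes tested. The 40S members had a median of 0.67 and the 60S members one of 0.60.

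The size of this difference rested on ex vivo 1. Without it the median log2 fold change was 0.25, with 69 of 75 members positive and no call, against 9.1% of all genes that rose and 3.86% that fell in that fit. Leaving out both ex vivo 1 and organoids p7, an alternative chosen after the data were seen, gave the same median of 0.25 with 6 rises, which included Rps27 and Rpl38, against 14.4% of all genes that rose and 10.3% that fell. DESeq2 called 8 rises and 0 falls on all 9 libraries, against 14.4% and 10.2% of all genes.

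Organoids were compared with cells, which sets growth in matrigel beside growth on plastic. No member passed the test in either direction, against 6.44% of all genes that rose and 4.29% that fell. DESeq2 likewise called 0 (10.1% and 7.56% of all genes), and edgeR at an unadjusted p under 0.05 gave 2 rises (Rplp1 and Rps18) and 0 falls, against 15.4% and 13% of all genes. Limma-voom with library weights, which gave organoids p7 a weight of 0.15 and p9 a weight of 5.69, called 7 rises and 3 falls, against 27.6% and 26.1% of all genes. The log2 fold change was positive in 70 of 75 members, with a median of 0.33 against 0.03 for all genes, and the libraries did not overlap in 10, all higher in organoids (16.2% of all genes were). Without organoids p7 the median was 0.01, with 39 of 75 positive.

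Rplp1 and Rps18 were the members with an unadjusted p under 0.05. Rplp1, a protein of the stalk that recruits elongation factors, had 1360, 976 and 931 CPM in organoids p7, p8 and p9, against 675, 574 and 695 CPM in cells, a log2 fold change of 0.75 (SE 0.30; edgeR adjusted p = 0.129). Rps18, in the head of the 40S subunit, had 1472, 839 and 857 CPM in organoids, against 602, 505 and 711 CPM in cells, a log2 fold change of 0.80 (SE 0.33; edgeR adjusted p = 0.140). Every organoid library was above every cell library in both genes. Rps28 had the highest value, 0.82, with overlapping libraries. The lowest values were those of Rps27l at -0.62, Rps2 at -0.29 and Rps26 at -0.22, none of which passed the test. Without organoids p7 and ex vivo 1, Rplp1 was called higher in organoids (0.53, edgeR adjusted p = 0.0250) and Rps26 (-0.66, adjusted p = 0.0433), Rps27l (-0.83, adjusted p = 0.0296) and Rps2 (-0.62, adjusted p = 0.0310) were called lower. In that fit 17.4% of all genes rose and 18.9% fell.

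Ex vivo tumors were compared with organoids in the same fit; this comparison shares its libraries with both others. No member passed the test, against 12.2% of all genes that rose and 10.5% that fell, and no member's libraries were free of overlap, against 21.5% of all genes higher and 19.7% lower. DESeq2 called 1 rise (14.5% of all genes), and edgeR at an unadjusted p under 0.05 gave 1 rise (19.2% of all genes) and 0 falls (18.6%), the same gene in both. That gene was Rps26, a 40S protein at the mRNA exit channel that contacts the mRNA just ahead of the start codon in yeast. It had 718, 523 and 368 CPM in ex vivo tumors, against 428, 218 and 212 CPM in organoids, a log2 fold change of 0.91 (SE 0.33; edgeR adjusted p = 0.0719). Organoids p7 alone overlapped the tumors, and without it Rps26 was called (1.34, adjusted p = 0.00546). Rps27 followed at 0.70 and Rps15 at 0.65, while Rps18 at -0.23, Rps3 at -0.19 and Rplp0 at -0.09 were the lowest. The median over 75 members was 0.30, against 0.03 for all genes; it was -0.05 without ex vivo 1 and 0.62, with 9 rises, without organoids p7, where 20.6% of all genes rose and 16% fell. Without both it was 0.27, with 7 rises and 0 falls, against 20% and 15.8% of all genes.

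**Figure D3:**
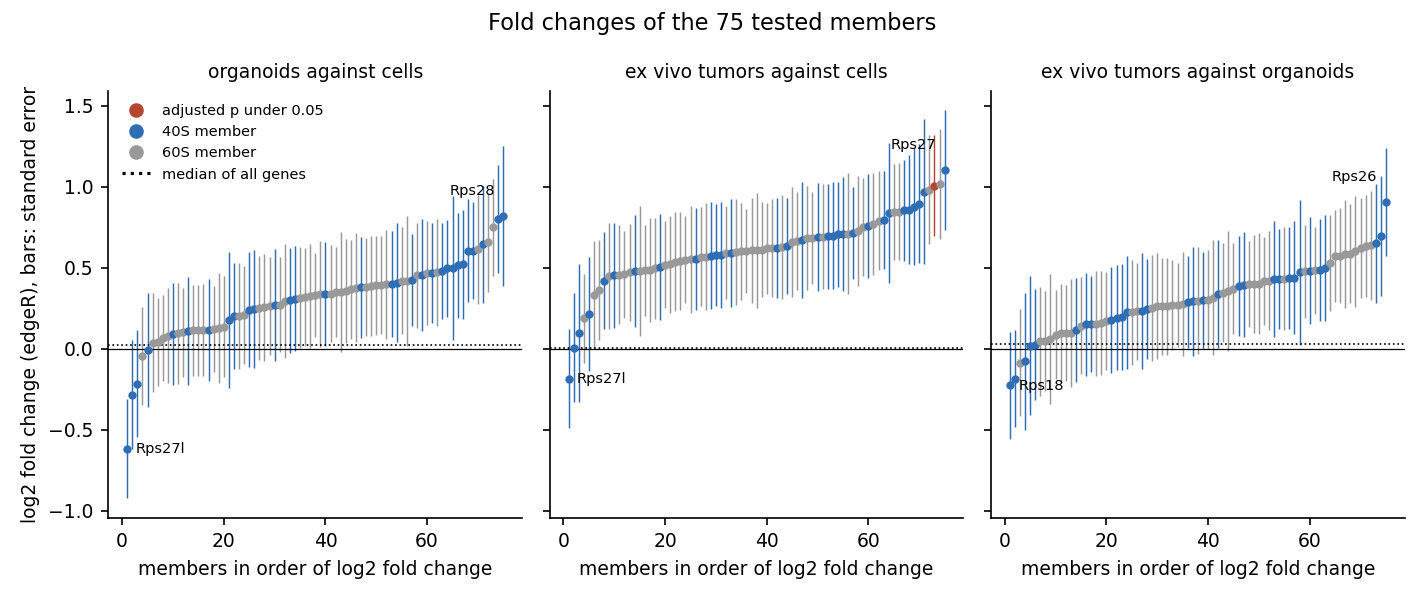
Log2 fold change of each of the 75 tested members (y axis, bars are the standard error of the edgeR fit) in order of size in the 3 comparisons, with 40S members in blue, 60S members in gray and the called member, Rpl38, in red; the dotted line is the median of all 13331 genes. Most members lie above 0 in all 3 comparisons, with 70, 74 and 71 of 75 positive from left to right.

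The members with particular roles stayed within this pattern. In the stalk, Rplp0 had 2572, 1266 and 1487 CPM in ex vivo tumors and 2566, 1551 and 1533 CPM in organoids, against 1152, 1327 and 1747 CPM in cells, so its states overlapped. Its fold change in ex vivo tumors over cells was 0.33 on the log2 scale, against 0.85 for Rplp1 and 0.61 for Rplp2, and none passed the test. Rpl5 and Rpl11, which with 5S rRNA can bind and inhibit Mdm2, had log2 fold changes of 0.55 and 0.54. Rpl5 stood at 3725, 2227 and 1706 CPM in ex vivo tumors, against 1770, 1512 and 1947 CPM in cells, with only ex vivo 1 and 2 above all the cells. Rps6, the target of S6 kinases, had 2495, 1681 and 1304 CPM in ex vivo tumors, against 1298, 868 and 1220 CPM in cells, without overlap, and a log2 fold change of 0.69 (SE 0.33; edgeR adjusted p = 0.163). Rps27a, made as a fusion with ubiquitin, was at 0.55 and Rpl41, the smallest ribosomal protein, at 0.71, neither of which passed the test. Of 11 members at the peptide exit tunnel 1 was called (Rpl38), and of 13 at the decoding site and mRNA channel none was. Of all genes tested, 12.4% rose and 6.78% fell in ex vivo tumors over cells. The median log2 fold changes of these members in that comparison were 0.69 and 0.63. Without organoids p7 and ex vivo 1 these values were smaller. In ex vivo tumors over cells, the log2 fold change was then -0.04 for Rplp0, 0.44 for Rplp1, 0.06 for Rplp2, 0.17 for Rpl5, 0.22 for Rpl11, 0.40 for Rps6, 0.16 for Rps27a and 0.10 for Rpl41, and none was called. The exit tunnel members then had a median of 0.32 with 3 rises (Rpl38, Rpl17 and Rpl19), and those at the decoding site and mRNA channel one of 0.16 with none. In that fit 14.4% of all genes rose and 10.3% fell.

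The 22 members with a run of C and T at the annotated start had a median log2 fold change of 0.67 in ex vivo tumors over cells, against 0.60 in the 36 tested members with a window and no run and 0.60 in the 17 with no window used. In organoids over cells the medians were 0.40, 0.31 and 0.27, and in ex vivo tumors over organoids 0.27, 0.29 and 0.40. Without organoids p7 and ex vivo 1 they were 0.25, 0.23 and 0.25 in ex vivo tumors over cells, 0.07, -0.03 and 0.01 in organoids over cells, and 0.25, 0.27 and 0.28 in ex vivo tumors over organoids. The ranges overlapped throughout.

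Because most of the variation was common to the family, each member was also read relative to it, by subtracting from each library's log2 CPM the median deviation of the 75 members. Most members then hardly differed between states. The relative difference was under 0.25 on the log2 scale in 64 of 75 members between ex vivo tumors and cells, in 61 between organoids and cells and in 58 between ex vivo tumors and organoids. When libraries were scaled to the family in the edgeR fit, an alternative chosen after the data were seen, no member was called in any comparison (background 2.57% rises and 2.79% falls in organoids over cells, 6.8% and 5.27% in ex vivo tumors over cells, and 6.85% and 5.82% in ex vivo tumors over organoids), and at an unadjusted p under 0.05 Rps2 and Rps27l were lower than in cells both in ex vivo tumors and in organoids. Relative levels of ex vivo tumors and cells did not overlap in 7 members higher in the tumors and 9 lower, against 9.44% and 36.6% of all genes; this background is shifted because the scaling lowers all other genes where the family is high. For organoids and cells the counts were 15 higher and 18 lower, against 5.30% and 26.6%, and for ex vivo tumors and organoids 17 and 15, against 11.5% and 9.43%. The values below are a description.

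Rps2 and Rpsa, both 40S proteins of the mRNA entry and exit sides, were lower relative to the family both in ex vivo tumors and in organoids. Rps2 had relative log2 levels of -0.18, -0.48 and 0.00 in ex vivo tumors and -0.16, -0.20 and -0.18 in organoids, against 0.20, 0.55 and 0.47 in cells. It made up 2.78%, 2.24% and 3.12% of the summed member CPM in ex vivo tumors and 2.75%, 2.66% and 2.73% in organoids, against 3.54%, 4.53% and 4.19% in cells, so every cell library was above the other 6. Rpsa, also known as the laminin receptor precursor, had relative levels of -0.12, -0.25 and -0.13 in ex vivo tumors and 0.07, -0.17 and -0.18 in organoids, against 0.31, 0.24 and 0.21 in cells.

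The Rps27 pair shifted in its balance. Rps27l had 103, 46.5 and 65.4 CPM in ex vivo tumors and 65.2, 48.9 and 45.4 CPM in organoids, against 79.3, 106 and 59.5 CPM in cells. The ratio of Rps27 to Rps27l counts was 16.5, 14.7 and 10.3 in ex vivo tumors and 13.3, 9.97 and 11.8 in organoids, against 5.57, 4.27 and 8.92 in cells, so the cells had the lowest ratios in all 3 libraries. This ratio compares states and not the levels of the 2 genes, since counts grow with mRNA length.

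A few members marked the organoids. Rps18 had relative levels of -0.14, -0.31 and -0.15 in ex vivo tumors and 0.39, 0.36 and 0.30 in organoids, against -0.17, -0.26 and -0.03 in cells, so all organoid libraries were above the other 6. Rps3, at the mRNA entry channel, had 0.19, 0.33 and 0.31 in organoids, and no other library was above 0.08. Rps26 went the other way, with 0.12, 0.53 and 0.09 in ex vivo tumors and -0.22, -0.41 and -0.54 in organoids, against 0.48, 0.03 and -0.07 in cells. Rpl11 was likewise lowest in organoids, at -0.16, -0.23 and -0.26. In these 4 genes organoids p7 lay on the same side as p8 and p9, although its family level was far above theirs.

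Rps27 and Rpl38 marked the tumors, with relative levels of 0.52, 0.08 and 0.11 for Rps27 and 0.32, 0.17 and 0.12 for Rpl38 in ex vivo tumors. Every organoid and cell library was at or below 0.00 for both, the highest being 0.00 for Rpl38 in organoids p8. Rpl17, at the exit tunnel, had 0.32, 0.12 and 0.12 in ex vivo tumors, and was below 0 in all 6 others. These relative levels are of tumors with host cells in them, whose part was not tested.

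A further 6 members varied within states even after the family level was removed, with a pooled SD above 0.3, while 49 of 75 were under 0.15. They were Rps14, Rps20, Rps21, Rps28, Rps27l and the weakly counted Rps17l. The first 4, small proteins of the 40S subunit of which Rps14 and Rps28 lie on its mRNA channel, shared a pattern over libraries. Rps14 had relative levels of 0.57, -0.50 and 0.11 in ex vivo tumors and 0.13, 0.00 and 0.08 in organoids, against -0.54, 0.07 and 0.07 in cells. Rps28 had 0.26, -0.60 and 0.11 in ex vivo tumors and 0.43, 0.24 and 0.26 in organoids, against -0.76, -0.09 and 0.15 in cells. Both were lowest in ex vivo 2 and cells p5, as were Rps20 and Rps21, and 21 of 75 members were lowest of their state in both of these libraries. The share of all genes with this pattern was not computed, and these 4 members were picked for their spread within states.

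**Figure D4:**
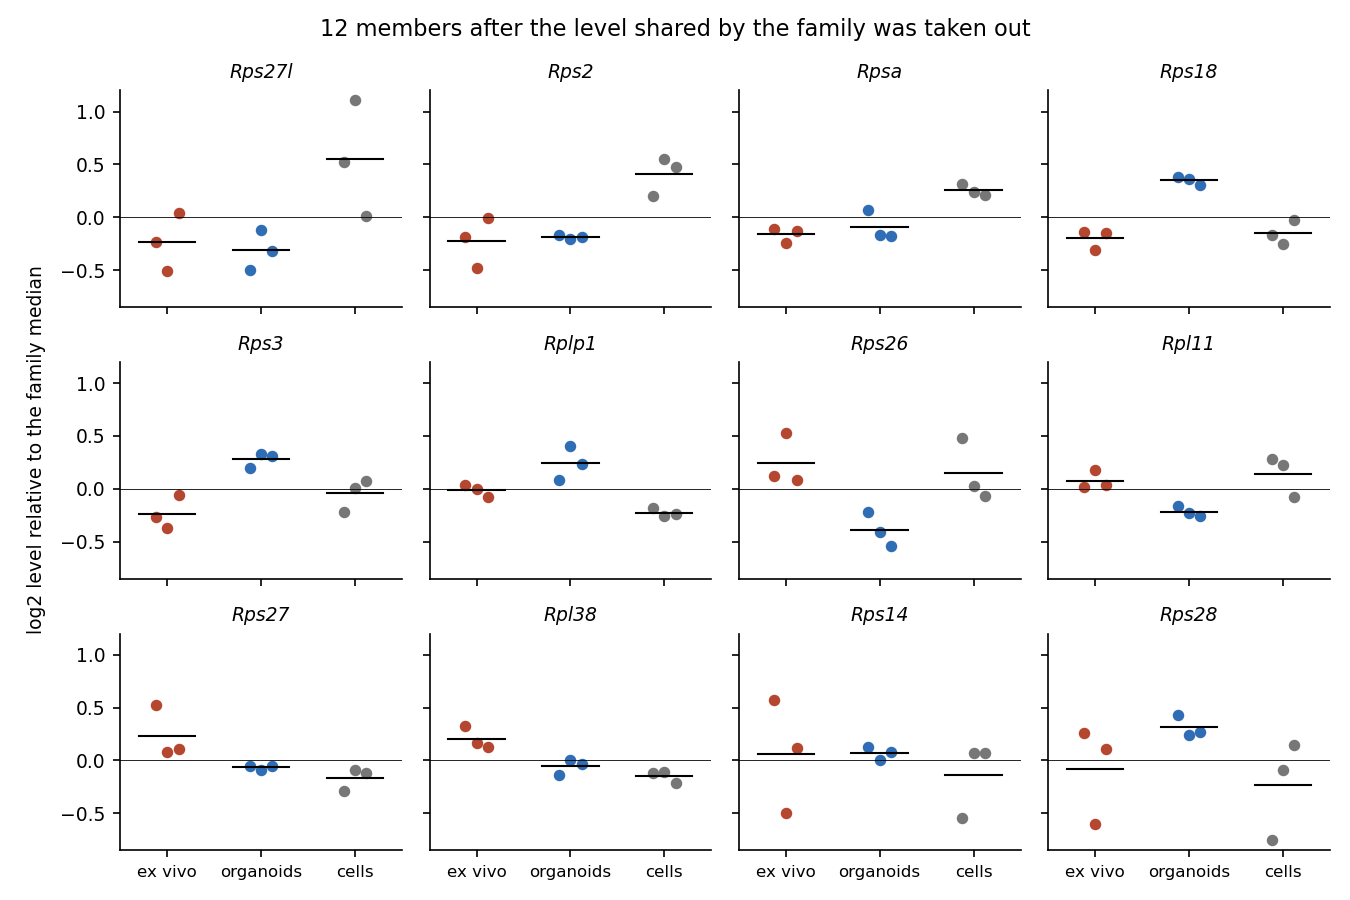
Log2 level relative to the family median (y axis) of 12 members in ex vivo tumors, organoids and cells, 1 point per library in the order of the text, with the mean of each state as a bar. By the means, Rps27l, Rps2 and Rpsa are highest in cells, Rps18 and Rps3 in organoids and Rps27 and Rpl38 in ex vivo tumors. For Rps27l the libraries overlap, with ex vivo 3 (0.04) above cells p11 (0.01). Rps14 and Rps28 have 1 low library both in ex vivo tumors and in cells.

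Among members, Rpl4, an exit tunnel protein, had the highest mean over the 9 libraries (2396 CPM) and Rps17l the lowest of those tested (1.63 CPM), but levels of different genes were not compared, since no transcript lengths were used and counts grow with length. Rpl37 had 44 to 123 counts per library. The 3 untested paralogs are known from particular tissues, Rpl3l from heart and skeletal muscle and Rpl10l and Rpl39l from testis. Rpl39l had 15, 23 and 3 counts in ex vivo tumors and 13, 23 and 15 in organoids, against 5, 2 and 1 in cells. Every organoid library was above every cell library, and Rpl39l was called higher in organoids and in ex vivo tumors when the filter was replaced by edgeR's filterByExpr or dropped. Its parent Rpl39, at the exit tunnel, had 483, 223 and 275 CPM in ex vivo tumors and 395, 265 and 260 CPM in organoids, against 158, 196 and 230 CPM in cells. Rpl10l had 4 counts in each ex vivo tumor, 0 in every organoid library and 0, 1 and 0 in cells, and it was called higher in ex vivo tumors than in organoids without a filter. Rpl3l had 3, 2 and 3 counts in ex vivo tumors and 0, 6 and 5 in organoids, against 1, 2 and 2 in cells. At a few counts per library these 3 genes are near the limit of detection, and genes that share reads with near-identical copies are uncertain.

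Ribosome genes outside the symbol rule followed the members. Of 8 listed, 6 were tested and none was called in any comparison, with median log2 fold changes of 0.25 in organoids over cells, 0.63 in ex vivo tumors over cells and 0.33 in ex vivo tumors over organoids. Without organoids p7 and ex vivo 1 these medians were -0.10, 0.15 and 0.20, and Rpl22l1, a paralog of Rpl22, was called higher in organoids over cells. In that fit 17.4% of all genes rose in organoids over cells. Fau had 745, 274 and 353 CPM in ex vivo tumors and 475, 269 and 272 CPM in organoids, against 245, 272 and 325 CPM in cells. The rows Rps9l1, Rps19l2, Rpl35al1 and Rpl37a-ps1, named for copies of the members with no row of their own, had medians of 0.43, 0.68 and 0.21 in these comparisons and no call; without the 2 libraries the medians were 0.17, 0.28 and 0.03, and Rps19l2 was called higher in organoids over cells (0.55, edgeR adjusted p = 0.0340). Rps19l2 had 1329, 678 and 727 CPM in ex vivo tumors and 1263, 811 and 799 CPM in organoids, against 480, 484 and 655 CPM in cells. Whether reads of the parent gene were assigned to these rows was not tested.

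Other parts of the translation machinery moved less closely with the family. Their calls are read beside those of all genes, of which 12.4% rose and 6.78% fell in ex vivo tumors over cells. The shares were 12.2% and 10.5% in ex vivo tumors over organoids, and 6.44% and 4.29% in organoids over cells. Of 17 other TOP mRNAs tested, such as elongation factors, 1 rose in ex vivo tumors over cells and 1 in ex vivo tumors over organoids, and their medians were 0.13 and 0.33, with -0.25 in organoids over cells. Tpt1, a TOP mRNA that codes for the growth-related protein TCTP, had 2549, 1560 and 1410 CPM in ex vivo tumors, against 1028, 765 and 1015 CPM in cells, and rose by 0.98 on the log2 scale (edgeR adjusted p = 0.0270). Eef1d, a subunit of elongation factor 1, rose by 0.89 in ex vivo tumors over organoids (edgeR adjusted p = 0.0238). Tpt1 lost the call without ex vivo 1, cells p5 or cells p8 (edgeR adjusted p = 0.0658 to 0.125), and Eef1d without ex vivo 1, organoids p8 or organoids p9 (edgeR adjusted p = 0.0676 to 0.0985). Of 73 mitochondrial ribosomal protein genes tested, 15 rose and 0 fell in ex vivo tumors over organoids (background 12.2% and 10.5%), 1 rose in ex vivo tumors over cells and 2 fell in organoids over cells, with medians of 0.55, 0.19 and -0.38. Without organoids p7 and ex vivo 1, 31 mitochondrial genes rose and 0 fell in ex vivo tumors over organoids (background 20% and 15.8%), 1 rose and 2 fell in ex vivo tumors over cells (14.4% and 10.3%), and 1 rose and 38 fell in organoids over cells (17.4% and 18.9%), with medians of 0.51, -0.08 and -0.56. The other TOP mRNAs then had medians of -0.06 in ex vivo tumors over cells, with 1 rise, 0.33 in ex vivo tumors over organoids, with 3 rises, and -0.44 in organoids over cells, with 1 rise and 6 falls. The median deviation from the mean of all libraries was 0.89 for the cytosolic family and 0.64 for the mitochondrial genes in ex vivo 1, and 0.49 and 0.03 for these lists in organoids p7. In organoids p8 and p9 it was -0.31 and -0.21 for the cytosolic family and -0.46 and -0.45 for the mitochondrial genes.

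Control genes of the family moved in few cases. Of all genes tested, 12.4% rose and 6.78% fell in ex vivo tumors over cells. The shares were 12.2% and 10.5% in ex vivo tumors over organoids, and 6.44% and 4.29% in organoids over cells. Of 19 genes of mTORC1 and TOP control, Ddit4, an inhibitor of mTORC1, rose in organoids over cells by 2.36 (edgeR adjusted p = 0.0126), with 69.6, 242 and 253 CPM in organoids p7, p8 and p9, against 50.8, 16.0 and 42.9 CPM in cells. The organoids with high Ddit4 were p8 and p9, the 2 with the lower ribosomal protein level; the relation of the 2 was not tested. In ex vivo tumors over organoids Ddit4 fell by 1.51 (edgeR adjusted p = 0.0425), with overlapping libraries. Larp4, which binds poly(A) tails and stabilises ribosomal protein mRNAs in human cells, fell by 0.96 in ex vivo tumors over cells (edgeR adjusted p = 0.0413). Of 11 chaperones and importins of ribosomal proteins, Tnpo1 and Ipo9 fell in ex vivo tumors over cells, by 1.09 (edgeR adjusted p = 0.0164) and 0.92 (edgeR adjusted p = 0.0179), and Tnpo1 fell by 1.27 over organoids (adjusted p = 0.00692). Tnpo1 had 143, 228 and 250 CPM in ex vivo tumors and 357, 570 and 576 CPM in organoids, against 478, 478 and 369 CPM in cells, so it was lowest in ex vivo 1 and, among organoids, in p7. Of 12 genes of ribosome quality control, Ascc3, a helicase that acts on collided ribosomes, fell by 0.84 in ex vivo tumors over cells (edgeR adjusted p = 0.0463) and by 0.97 over organoids (edgeR adjusted p = 0.0237). Of 7 proliferation genes, Ccnb1 fell in ex vivo tumors over cells (by 0.88, edgeR adjusted p = 0.0499). With 1 library left out at a time, Ddit4 in organoids over cells and Tnpo1 in ex vivo tumors over organoids kept the call in every case. Tnpo1 in ex vivo tumors over cells lost it without cells p5 or p8 (edgeR adjusted p = 0.0563 and 0.0582) and Ipo9 without cells p8 (edgeR adjusted p = 0.0710). The others were less firm in ex vivo tumors over cells. Larp4 lost the call without ex vivo 1 or 3 or any 1 of the cell libraries (edgeR adjusted p = 0.0514 to 0.146), Ascc3 without ex vivo 1 or 2 or any 1 of the cell libraries (0.0749 to 0.138), and Ccnb1 without any library but cells p11 (0.109 to 0.176). In ex vivo tumors over organoids, Ascc3 lost the call without organoids p8 or p9 (edgeR adjusted p = 0.0613 and 0.0936) and Ddit4 without any library but organoids p7 (0.0952 to 0.135). With organoids p7 and ex vivo 1 both left out, every call named here and those of Tpt1 and Eef1d were kept (edgeR adjusted p = 0.000748 to 0.0228). That fit was chosen after the data were seen. It called more of all genes in every comparison, so a call kept there is not an independent check. More genes of these lists were then called in organoids over cells, with 4 rises and 2 falls in mTORC1 and TOP control, 3 falls in chaperones and importins, 1 rise and 2 falls in quality control and 5 falls in proliferation, against 17.4% of all genes that rose and 18.9% that fell.

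**Figure D5:**
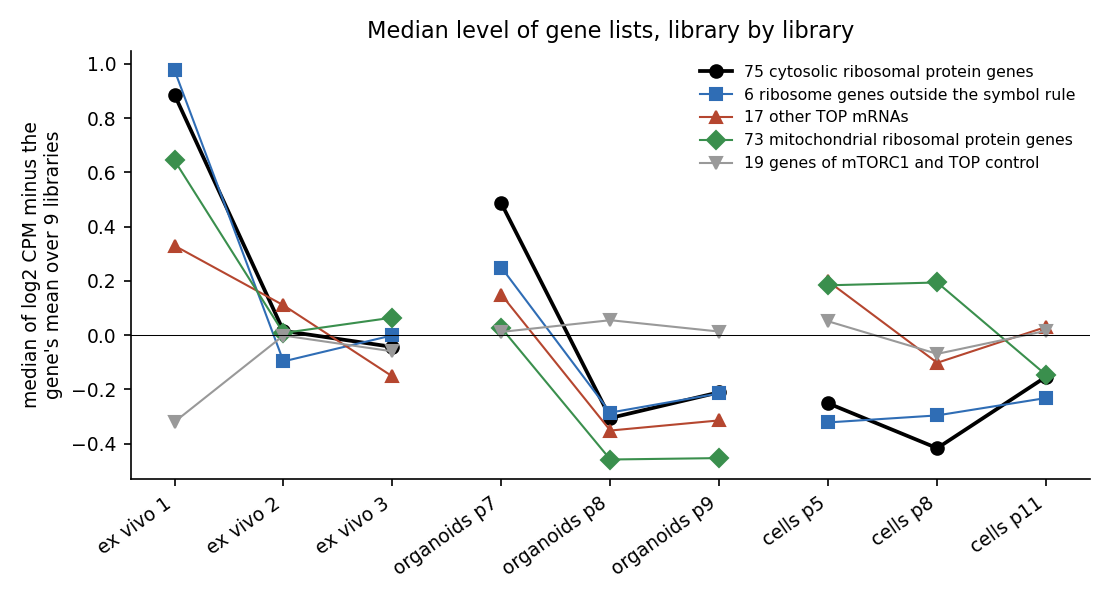
Median over each gene list of log2 CPM minus the gene's mean over 9 libraries (y axis), for the 75 cytosolic ribosomal protein genes and 4 other lists, library by library. In ex vivo 1 the family stands at 0.89 and the ribosome genes outside the symbol rule at 0.98, and in organoids p7 the family stands at 0.49 and the mitochondrial ribosomal protein genes at 0.03.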

How the data were processed

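Per the study's methods, RNA of each sample was made into libraries with the KAPA mRNA Hyperprep kit and sequenced on a HiSeq instrument. The authors checked reads with FastQC 0.11.9 and MultiQC 1.9, removed the first 11 bases and bases below a quality of 20 with Cutadapt 1.18, and aligned and counted with STAR 2.7.4 against mRatBN7.2; neither the annotation nor the strand setting is given in the sources used here. The deposited table holds whole-number counts per gene symbol for all 9 libraries; its name calls them normalized, but their unequal totals led to their use as raw counts. Without a stated strand setting, reads of overlapping genes and near-identical copies cannot be told apart.

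Counts were fitted with edgeR 4.0.16 (R 4.3.3), TMM scaling and glmQLFTest, two-sided, in 1 fit of all 9 libraries with 1 mean per state and 6 residual degrees of freedom. Genes were kept if the mean over libraries of quantile-normalized log2(count + 1) was at least 4, which kept 13331 of 34322; p-values were adjusted by Benjamini-Hochberg over these, with a threshold of 0.05. CPM values use TMM-scaled library sizes. No p-value was computed over the family. Alternatives were other scalings, filters, DESeq2 1.42.0, limma 3.58.1 and leaving out each library. Figures were drawn with matplotlib 3.10.9. Symbols of 75 of 78 members matched RefSeq (GRCr8), whose table gave the start windows; the counts were made on another build, so no position was joined to them.

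The members and lists were chosen with earlier results of these data known. Members were named if they were called without overlap, were among the 3 highest or 3 lowest fold changes of a comparison, had a listed role or paralog, were left out by the filter, or had the highest or lowest mean CPM; of the other lists up to 2 called rises and falls each were named. Some results that this rule covers are not reported here. Rpl17, Rpl19, Rps14, Rps20, Rps21, Rpl34, Rpl31 and the list of relative levels were named after their values were seen. Of the marker lists, fibroblast, macrophage, B and plasma cell, endothelial and T and NK cell markers rose in ex vivo tumors over cells in 5 of 5, 6 of 7, 3 of 3, 5 of 7 and 1 of 1 genes tested, mesothelial ones in 1 of 3 and epithelial ones in 6 of 13. The keratin gene Krt19 stands in both the mesothelial and the epithelial list. Without organoids p7 and ex vivo 1 it was the only mesothelial gene called in that comparison, where 14.4% of all genes rose. No erythrocyte gene was tested.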

Additional observations from a re-analysis of the deposited data

How the results depend on the processing

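The number of calls depended on the libraries left out and on the test, and the direction of the family median on the libraries in ex vivo tumors over organoids; the cause was not tested except where the setting itself shows it. The median log2 fold change in ex vivo tumors over organoids was between -0.055 and 0.62 when 1 library was left out, the lowest without ex vivo 1; that of ex vivo tumors over cells stayed between 0.25 and 0.79 and that of organoids over cells between 0.012 and 0.48. With libraries scaled to the family, which sets its level equal by construction, the medians were -0.0056 in ex vivo tumors over cells and -0.024 in ex vivo tumors over organoids, and ex vivo tumors over cells had 0 rises. In what follows the share of all genes called in the same fit stands in parentheses. Rises in ex vivo tumors over cells numbered between 0 and 3 when 1 library was left out (9.1% to 12.9%), 2 with upper quartile scaling (13.5%), 7 with quantile normalization and limma (9.86%), with 1 fall, of Rps17l (21%), 5 without a filter (15.6%), 2 with filterByExpr (20.2%), 8 with DESeq2 (14.4%), 12 with limma-voom and library weights (19%), 4 in a fit of the 6 libraries compared (13.7%) and 6 without organoids p7 and ex vivo 1 (14.4%). Rises in ex vivo tumors over organoids numbered between 0 and 9 when 1 library was left out (8.62% to 20.6%), 2 with quantile normalization (11%), with 1 fall (23%), 2 without a filter (14.7%), 1 with DESeq2 (14.5%), 24 with limma-voom (30.5%) and 7 without those 2 libraries (20%). In organoids over cells there was 1 rise without a filter (4.82%) or with filterByExpr (5.41%), of Rpl39l, which the filter removes, 7 rises (27.6%) and 3 falls (26.1%) with limma-voom, and 1 rise (17.4%) and 3 falls (18.9%) without those 2 libraries. The median of all genes was shifted to -0.26 and -0.21 in the 2 tumor comparisons by quantile normalization, to 0.31 and 0.27 without a filter, and to -0.50 and -0.24 by scaling to the family.

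Among members in ex vivo tumors over cells, Rps2 was between -0.39 and 0.25 with 1 library left out, -0.0082 with DESeq2's size factors, -0.0012 with library totals, -0.084 without a filter, -0.052 with filterByExpr, -0.0082 with DESeq2, -0.25 with limma-voom, -0.0057 with 6 libraries, -0.39 without the 2 libraries and -0.62 scaled to the family. Rps17l was between -0.27 and 0.38 with 1 library left out, -1.54 with quantile normalization, -0.11 with limma-voom, -0.27 without the 2 libraries and -0.52 scaled to the family. Rpsa was between -0.19 and 0.40, then -0.041, -0.19 and -0.42 with limma-voom, without the 2 libraries and scaled to the family. Rplp0 was between -0.040 and 0.54, then -0.041 without the 2 libraries and -0.28 scaled to the family. Rps27l was between -0.56 and 0.059. Scaled to the family, Rplp2 was at -0.066, Rpl5 at -0.074, Rpl11 at -0.074 and Rps27a at -0.078. In ex vivo tumors over organoids with 1 library left out, Rps18 was between -0.62 and 0.11, Rps3 between -0.51 and 0.069 and Rplp0 between -0.44 and 0.22; Rplp0 was at 0.025 with quantile normalization. No paired analysis was possible because cells and organoids share only passage 8 and no label says what the numbers of the ex vivo tumors stand for.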
